A study of Mus musculus with 8 samples.

Results

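The transcripts described here encode the non-collagen glycoproteins and proteoglycans of the extracellular matrix: the elastic fiber proteins, the latent TGF-β binding proteins, the laminin chains with the nidogens and perlecan that tie basement membranes together, fibronectin and the matricellular proteins, and 3 matrix proteoglycans. The rule that gives the 35 genes names them by what their proteins do and uses no measured value, although they were chosen with earlier results of these data known. All 35 were present among the 46517 genes of the count table. They were measured in whole liver of MøFoxO1-KO mice and WT littermates, 4 mice in each group, by poly(A)-selected RNA sequencing.

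Matrix glycoproteins assemble outside the cell into elastic fibers, basement membranes and the provisional matrix that fibronectin lays down at sites of repair. Laminins are trimers of an α, a β and a γ chain, and nidogens bridge the laminin network to the type IV collagen network. The healthy liver sinusoid lacks a continuous basement membrane, and the appearance of one along the sinusoid, together with elastic fiber deposition in portal tracts and septa, is a known feature of chronic liver disease.

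All mice were male and on the C57BL/6 background. The MøFoxO1-KO mice carried FoxO1 loxP/loxP with Lyz2-Cre, in which Cre is driven by the lysozyme 2 promoter of myeloid cells, whereas the WT littermates carried FoxO1 loxP/loxP without Cre. Both groups received NASH diet from 6 weeks of age over 25 weeks, were fasted for 16 h and were 31 weeks old at sampling. No group on another diet was analyzed here, so the values describe NASH-diet livers with and without myeloid FoxO1.

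In whole liver, where cells outside the myeloid lineage keep the gene, Foxo1 was at 395, 459, 303 and 459 normalized counts in WT mice 22 to 25 and at 430, 302, 416 and 290 in MøFoxO1-KO mice 26 to 29. The groups overlapped (log2 fold change -0.17, SE 0.18, adjusted P = 0.686 by edgeR with Benjamini-Hochberg adjustment), so the whole-liver count does not check the genotype labels. Values given per mouse keep this order throughout. Library totals ran from 15253218 to 18025481 counts, and the 35 genes together took 0.158 to 0.186% of them. Fibronectin alone supplied 46.0 to 70.9% of those counts. The 20 most abundant genes of each library took at most 25.6% of the counts in WT and 26.3 to 27.5% in MøFoxO1-KO mice, without overlap, and the TMM scaling factors were 0.992 to 1.15 and 0.902 to 1.01. With DESeq2 size factors or upper-quartile scaling in edgeR, the members with a log2 fold change below 0 numbered 22 of 34, as they did with TMM. One WT library, mouse 23, stood apart: it was the lowest of all 8 mice in 13 of 34 tested members (25.5% over all tested genes) and the lowest of the WT mice in 21 (34.8% over all tested genes). In MøFoxO1-KO mouse 27, 12 members were at their lowest of 8 (13.0% over all tested genes). MøFoxO1-KO mouse 28 was the highest of its group in 20 members, against 27.2% of all tested genes. The summed sinusoidal endothelial markers, 8 genes that include Stab2 and Clec4g, were at 116 CPM (counts scaled to a library of 1000000) in WT mouse 23 and at 219 to 348 in the other mice. Summed stellate cell markers (10 genes) were at 155 in the same mouse and at 180 to 270 in the others. Between the groups, the endothelial genes with the smallest P, Cdh5 and Stab2, had log2 fold changes of 0.38 (SE 0.26) and 0.23 (SE 0.17). The part of these markers in the values of WT mouse 23 was not tested. In whole liver, fewer cells of a type and less RNA per cell cannot be told apart.

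The levels of the members in WT livers spanned 0.00997 to 98.2 on a per-length scale, the RPKM (CPM divided by the exon length in kilobases). Ecm1, a secreted glycoprotein known to help hold TGF-β latent in liver, had the highest WT level (98.2 ± 32.7 RPKM, SD, n = 4), and fibronectin (Fn1) followed at 75.0 ± 21.8. Biglycan (Bgn), a small leucine-rich proteoglycan, and Sparc, a collagen-binding matricellular protein, came next at 23.6 ± 5.12 and 18.9 ± 4.08 RPKM. The other 31 genes were below 10 RPKM, led by Ltbp4 (7.85 ± 2.47), Efemp1 (5.50 ± 3.40), Sparcl1 (4.51 ± 1.23) and Nid1 (3.44 ± 0.50), and 17 of the 35 exceeded 1 RPKM. Neighbors in this order mostly shared a range, as only 3 of the 34 neighboring pairs had WT mice that did not overlap. Lama3 and Thbs2 shifted most in rank between the groups, Lama3 from place 31 in WT to 21 in MøFoxO1-KO livers and Thbs2 from 23 to 16, and Nid1 went from 8 to 11. Versican (Vcan), a large proteoglycan of provisional matrix, had at most 5 counts in any mouse.

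**Figure D1:**
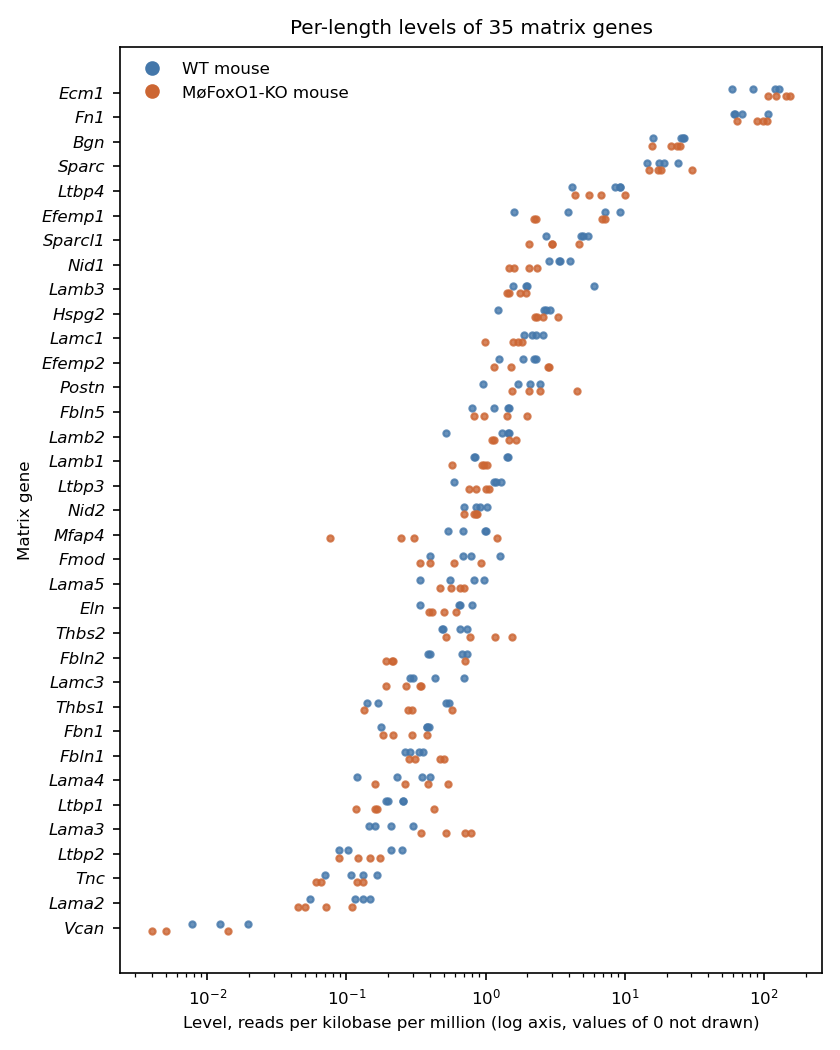
Level of each of the 35 genes in every mouse (points, blue WT and orange MøFoxO1-KO, 4 mice each), in RPKM on a log axis, ordered by the WT mean. Ecm1 and Fn1 stand at the top, Vcan at the bottom, and the 2 groups lie apart for Lama3, Nid1 and Lamc1.

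No member passed the threshold for a change between MøFoxO1-KO and WT livers. The paper reports extracellular matrix organization among its downregulated pathways. The genes its text names for this, Col1a1, Timp1, Mmp12 and Mmp13, are not among the members. In the edgeR quasi-likelihood test with Benjamini-Hochberg adjustment over 13278 genes, 0 of 34 tested members reached an adjusted P under 0.05 with an absolute log2 fold change over 1.5, where 0.188% of all tested genes did, and 0 reached the adjusted P alone (background 0.294%). At an unadjusted P under 0.05 there were 4 of 34 members, or 11.8%, below the 16.7% of all tested genes. The laminin α3 chain (Lama3) and thrombospondin 2 (Thbs2) were the 2 with higher mean counts in MøFoxO1-KO livers (background 8.65%), and nidogen 1 (Nid1) and the laminin γ1 chain (Lamc1) the 2 with lower ones (background 8.06%). Of the 34 members, 12 had a log2 fold change above 0 and 22 below it (64.7%, against 51.7% of all tested genes), with a median of -0.19 against -0.01. Groups without overlap were seen for 1 member that was higher (Lama3, background 5.0%) and 2 that were lower (Nid1 and Lamc1, background 4.71%). Standard errors ran from 0.18 to 0.64 with a median of 0.31 on the log2 scale, so changes of the size seen for most members were not detectable with 4 mice a group. The call depended on the test. DESeq2 put Lama3 and Nid1 below an adjusted P of 0.05 (2 of 34, where 4.41% of all tested genes were) and called Lama3, which also passed the fold limit (background 1.08%). edgeR with no filter on low counts gave the same 2 genes (background 0.866%) and the same 1 call (background 0.507%), and at an adjusted P under 0.1 the main edgeR test held these 2 genes as well (background 1.04%).

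**Figure D2:**
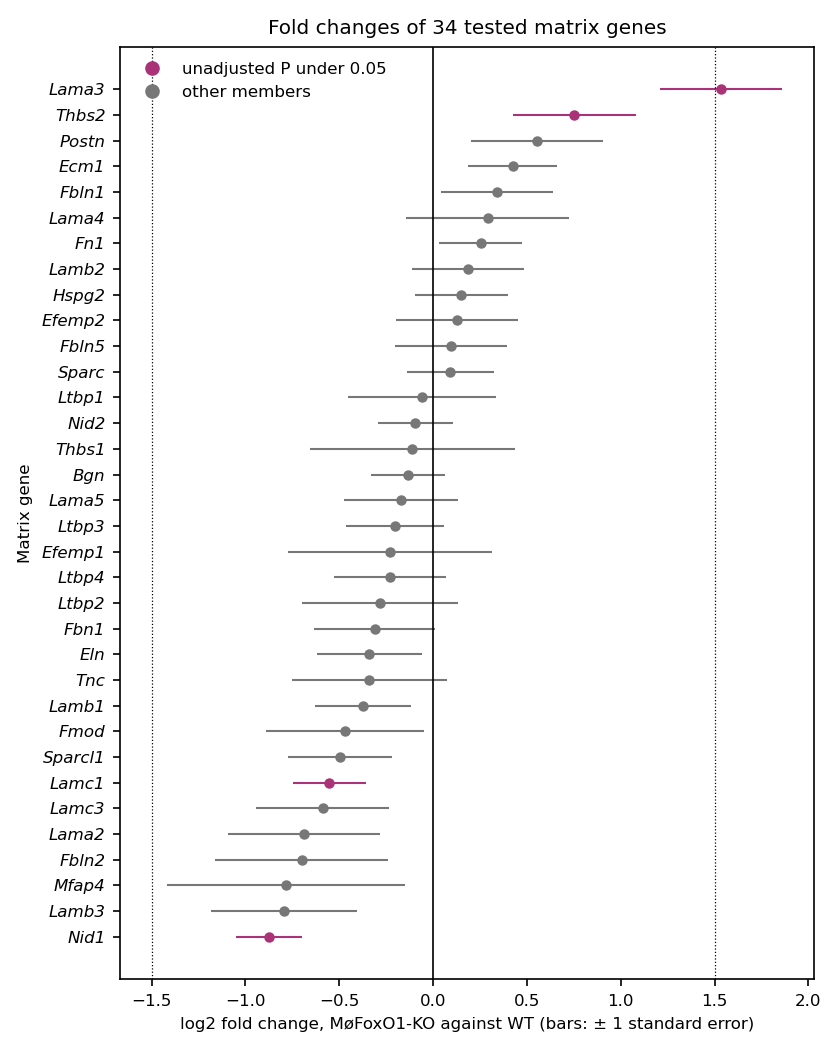
Log2 fold change of MøFoxO1-KO against WT for the 34 tested genes, with bars of 1 standard error and dotted lines at the fold limit of 1.5 on the log2 scale. Lama3 lies at 1.54 and Nid1 at -0.88, and 24 of the 34 points lie within 0.5 of 0.

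**Figure D3:**
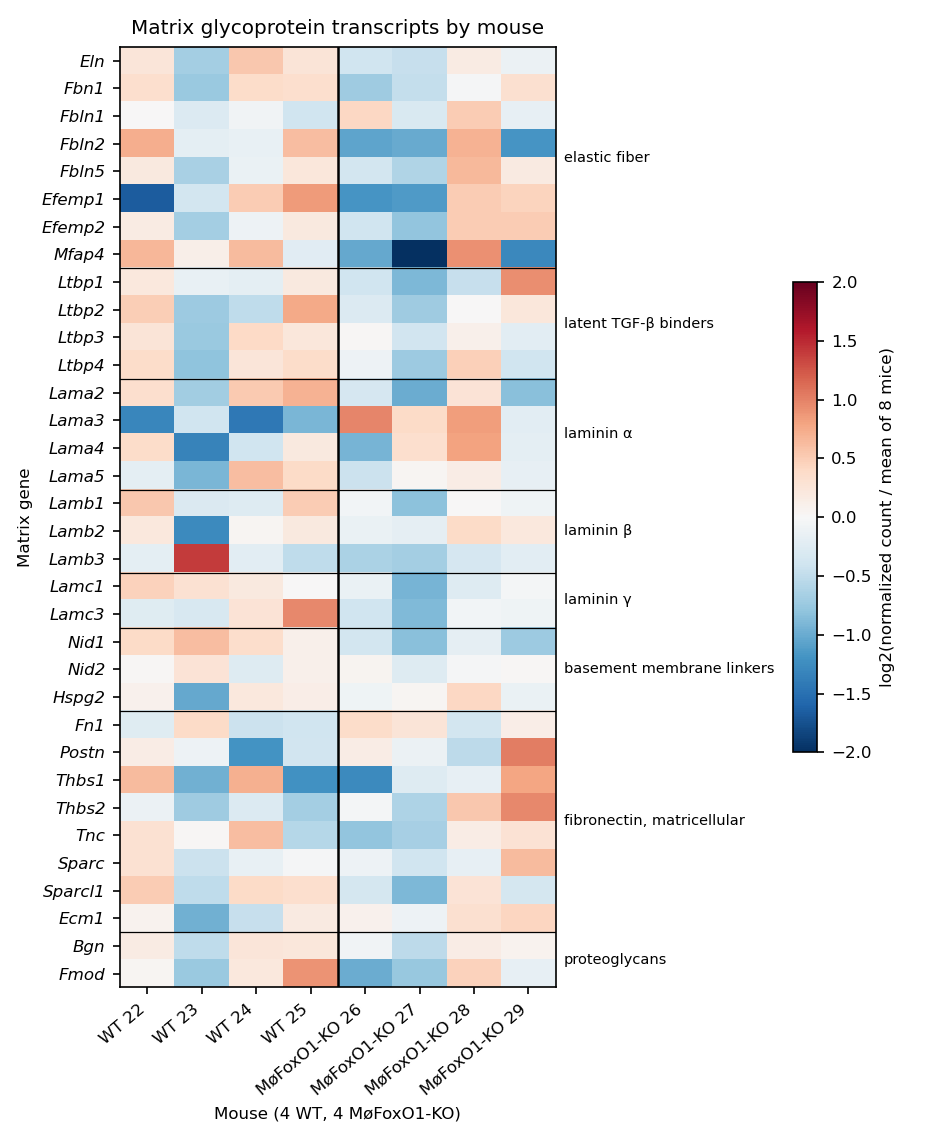
Log2 of the normalized count over the mean of the 8 mice, with 0.5 added to each count, for the 34 tested genes grouped by role (rows) in each mouse (columns, 4 WT left and 4 MøFoxO1-KO right). WT mouse 23 and MøFoxO1-KO mouse 27 are blue in many rows, Lamb3 is red in WT mouse 23, and the Lama3 and Nid1 rows change color at the line between the groups.

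The 3 members whose groups were separate encode basement membrane proteins. Among the 12 laminins, nidogens and perlecan, 3 (25.0%, against 16.7% of all tested genes) had an unadjusted P under 0.05, which is 1 gene more than that background would give, and the median log2 fold change was -0.27. These 3 are the same genes, 1 higher and 2 lower. The 12 pool roles that are otherwise kept apart, so the share only restates these genes. Lama3, an α chain of epithelial laminin at anchoring structures, had normalized counts of 28.1, 53.1, 25.8 and 36.8 in the WT mice and of 139, 92.0, 125 and 60.4 in the MøFoxO1-KO mice. The groups were separate, with the closest approach between MøFoxO1-KO mouse 29 and WT mouse 23. The mean was 2.90-fold higher, a log2 fold change of 1.54 (SE 0.33, unadjusted P = 0.000813, adjusted P = 0.0968 by edgeR with Benjamini-Hochberg adjustment). DESeq2 gave an adjusted P of 0.000805, and edgeR with no filter on low counts 0.0310, while over every alternative the adjusted P ranged up to 0.245. Leaving out each mouse in turn moved the log2 fold change between 1.36 and 1.78, and its unadjusted P stayed under 0.05 in all 8 fits. Lama3 remained a low transcript in both groups, at 0.204 ± 0.0701 RPKM in WT and 0.590 ± 0.199 in MøFoxO1-KO livers (SD, n = 4).

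Nid1, the nidogen that binds the laminin γ1 arm and type IV collagen, had normalized counts of 343, 403, 338 and 282 in WT and of 203, 147, 233 and 159 in MøFoxO1-KO mice. The lowest WT mouse lay above the highest MøFoxO1-KO mouse. The log2 fold change was -0.88 (SE 0.18, unadjusted P = 0.000541, edgeR Benjamini-Hochberg adjusted P = 0.0851), and the WT mean was 1.84-fold the MøFoxO1-KO mean. DESeq2 gave an adjusted P of 0.00135 and edgeR with no filter 0.0262, and without MøFoxO1-KO mouse 28 the edgeR value was 0.0385. Over all alternatives it reached 0.261 at most, and the log2 fold change without any 1 mouse stayed between -0.99 and -0.77. Its paralog Nid2 was at 69.7 ± 10.5 and 65.2 ± 6.22 normalized counts, a log2 fold change of -0.10 (SE 0.20), with overlapping groups. In Nid2, 7.90% of the exon length is shared with Rtraf on the opposite strand. The library kit was taken as not marking strand, so reads there could not be assigned to Nid2 or Rtraf by strand. Perlecan (Hspg2), the large heparan sulfate proteoglycan of basement membranes, stood at 558 ± 181 and 619 ± 114 normalized counts (log2 fold change 0.15, SE 0.25).

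Lamc1, the γ chain of most laminin trimers, had normalized counts of 351, 316, 292 and 256 in WT mice and of 233, 134, 214 and 247 in MøFoxO1-KO mice. The groups did not overlap, but WT mouse 25 and MøFoxO1-KO mouse 29 differed by less than the spread within either group. Its log2 fold change was -0.55 (SE 0.19, unadjusted P = 0.0165, edgeR Benjamini-Hochberg adjusted P = 0.210), from -0.65 to -0.39 when each mouse was left out. Lamc3, another γ chain, was at -0.59 (SE 0.35) with overlapping groups. Nid1 and Lamc1 encode proteins that bind each other, and both had lower mean counts in MøFoxO1-KO livers. An exact two-sided permutation test over the 8 mice gave P = 0.0286 for each of Lama3, Nid1 and Lamc1, which is the smallest P that 4 against 4 mice can give. Groups without overlap always give this value, so it restates their separation, and it was not adjusted over the members.

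**Figure D4:**
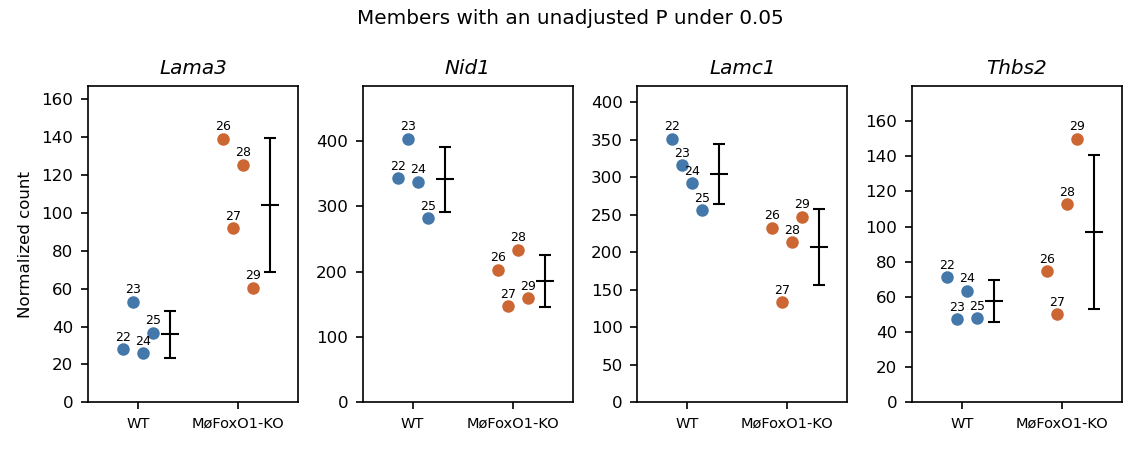
Normalized counts of the 4 members with an unadjusted P under 0.05, 1 point for each mouse with its number, and the mean with SD beside each group (n = 4). Lama3, Nid1 and Lamc1 are separate between the groups, and Thbs2 overlaps.

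In mm10, Nid1 lies at chr13:13437602-13512275 (+ strand), Lamc1 at chr1:153218922-153332786 (− strand) and Thbs2 at chr17:14665500-14694262 (− strand). Promoter sequence was read for the members that RefSeq lists (GRCm38.p6), as the 250 bases before each transcription start. Of 35 promoters of 25 members, 21 (60.0%) held the GC box GGGCGG on either strand, against 32.7% of 32851 promoters of all genes. The TATA motif TATAAA was in 5 (14.3%, against 12.4%), the AP-1 motif TGANTCA in 2 (5.71%, against 6.75%), the E-box CACGTG in 2 (5.71%, against 6.02%), the forkhead core TGTTTAC in 0 (against 3.17%) and the SMAD box GTCTAGAC in 0 (against 0.167%). These matches are letters within a window and do not show binding, overlapping matches were allowed, and none of the 6 motifs lies within another. Some genes have several listed promoters with overlapping windows, so 1 site can be counted more than once. Both E-box promoters share 1 site of Fbln1. Tnc enters the TATA and GC box counts through overlapping windows, and Ltbp4 and Efemp2 do so for the GC box. The promoters of Nid1 (chr13:13437352-13437601, + strand) and Thbs2 (chr17:14694263-14694512, − strand) are shown because the first gene had lower and the second higher mean counts in MøFoxO1-KO livers, and they differ in base composition (64.4 and 46.8% G or C). Capitals mark a GC box in Nid1, 67 bases before the start, and the reverse complement of the TATA motif in Thbs2, 126 bases before it.
Nid1: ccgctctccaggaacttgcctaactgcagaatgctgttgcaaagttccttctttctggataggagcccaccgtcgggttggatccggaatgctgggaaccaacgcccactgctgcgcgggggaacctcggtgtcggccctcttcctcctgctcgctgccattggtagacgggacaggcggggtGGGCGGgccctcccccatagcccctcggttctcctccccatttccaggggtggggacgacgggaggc
Thbs2: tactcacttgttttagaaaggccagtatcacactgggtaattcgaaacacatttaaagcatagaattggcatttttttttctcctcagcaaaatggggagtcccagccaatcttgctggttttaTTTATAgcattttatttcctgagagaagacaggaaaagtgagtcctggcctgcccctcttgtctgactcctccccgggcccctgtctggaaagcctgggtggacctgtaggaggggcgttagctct

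The remaining laminin chains overlapped between the groups. Lama5, the α chain with the highest WT level (0.671 ± 0.283 RPKM), had normalized counts of 103, 62.9, 182 and 154 in WT and of 88.2, 122, 131 and 105 in MøFoxO1-KO mice, a log2 fold change of -0.17 (SE 0.30). The MøFoxO1-KO values lay inside the WT range. Lama2, the α chain of muscle basement membrane, was at -0.69 (SE 0.40) and Lama4, the α chain of vessel walls, at 0.29 (SE 0.43). Lamb1 and Lamb2 were at -0.37 (SE 0.26) and 0.19 (SE 0.30). Lamb3, the β chain that joins Lama3 in epithelial laminin, had normalized counts of 215, 649, 211 and 172 in WT mice and of 159, 154, 194 and 212 in MøFoxO1-KO mice. Apart from WT mouse 23 the groups shared a range, and the log2 fold change of -0.80 (SE 0.39, edgeR Benjamini-Hochberg adjusted P = 0.341) became -0.15 without that mouse.

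Expressed as a share of the summed per-length level of the 4 α chains, Lama3 made up 18.4 ± 12.6% in WT and 37.0 ± 10.9% in MøFoxO1-KO livers (SD, n = 4; exact permutation P = 0.114). The share was 37.1% in WT mouse 23, inside the MøFoxO1-KO range, and between 9.88 and 13.6% in the other WT mice. Lama2 made up 8.67 ± 1.32% in WT and 4.25 ± 1.10% in MøFoxO1-KO livers, with no overlap (exact permutation P = 0.0286, n = 4). With Benjamini-Hochberg adjustment over the 9 chains whose shares were compared, the lowest permutation P was 0.257. As 0.0286 is the smallest permutation P possible with these mice, separation of Lama2 alone could not pass this adjustment. The Lama5 share was 51.5 ± 10.7% and 38.1 ± 6.54%, and the Lama4 share 21.4 ± 8.22% and 20.7 ± 6.86%. Shares within a chain type sum to 100%, so a higher share of 1 chain lowers the others.

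**Figure D5:**
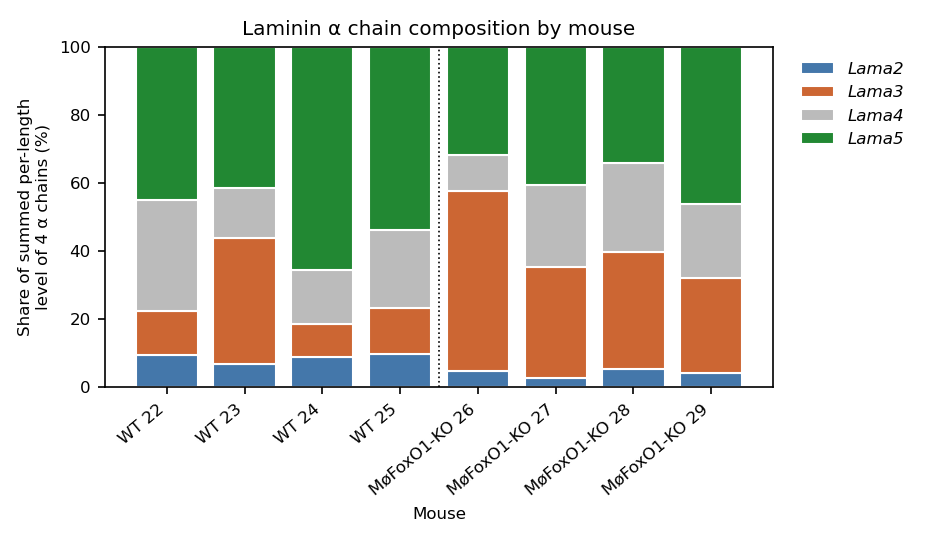
Share of Lama2, Lama3, Lama4 and Lama5 in the summed per-length level of the 4 laminin α chains (stacked bars, %), 1 bar for each mouse, WT left of the dotted line. The Lama3 segment covers 28.1 to 52.9% in the MøFoxO1-KO mice, and 9.88 to 13.6% in the WT mice other than mouse 23.

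None of the 8 elastic fiber genes had an unadjusted P under 0.05, and 5 of them had a log2 fold change below 0 (median -0.27). Efemp1 (fibulin 3) had the highest per-length level and a standard error of 0.54, with normalized counts of 53.4, 132, 242 and 309.6 in WT mice and of 74.8, 77.6, 243 and 232 in MøFoxO1-KO mice. WT mouse 22 and MøFoxO1-KO mice 26 and 27 were low, in both groups alike. Summed mesothelial markers (5 genes, among them Msln and Upk3b) were at 0.642 to 2.28 CPM in the same 3 mice and at 7.30 to 32.9 in the other 5, and their part in the Efemp1 values was not tested. The mesothelial genes with the smallest P, Lrrn4 and Gpm6a, were at -1.46 (SE 1.04) and -0.59 (SE 0.69).

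Elastin (Eln), the core of the elastic fiber, was at 81.0 ± 25.6 and 64.0 ± 13.4 normalized counts (log2 fold change -0.34, SE 0.28). Fibrillin 1 (Fbn1), which builds the microfibril scaffold, was at -0.31 (SE 0.32). Mfap4, a microfibril-associated protein, had 31.9, 21.6, 31.4 and 16.9 normalized counts in WT and 9.59, 2.39, 38.0 and 7.84 in MøFoxO1-KO mice. Fibulin 2 (Fbln2), which links elastin to microfibrils, had 76.8, 40.3, 41.5 and 70.7 in WT and 22.1, 22.7, 75.0 and 20.1 in MøFoxO1-KO mice. In both genes, 3 MøFoxO1-KO mice lay below every WT mouse and mouse 28 lay with or above the WT mice. Summed adipocyte markers (4 genes) split the same MøFoxO1-KO mice, at 275 CPM in mouse 28 and at 0, 0.350 and 0.727 in the others. Only Cfd of the 4 passed the filter, so the sum is not a reading of adipocyte genes as a whole. In the WT mice it was at 143, 125, 8.59 and 23.3 CPM. The part of these markers in the Mfap4 and Fbln2 values was not tested. The log2 fold changes of Mfap4 and Fbln2 were -0.78 (SE 0.64) and -0.70 (SE 0.46). Without MøFoxO1-KO mouse 28 they were -1.89 and -1.39, with edgeR Benjamini-Hochberg adjusted P of 0.124 and 0.103. Fbln1 stood at 0.34 (SE 0.30), and the assembly fibulins Fbln5 and Efemp2 (fibulin 4) at 0.10 (SE 0.30) and 0.13 (SE 0.33).

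Portal fibroblasts and stellate cells are the main makers of these proteins in liver. Summed portal fibroblast markers (8 genes) were at 81.2 to 116 CPM in WT and at 58.2 to 77.9 in MøFoxO1-KO mice, and Gas6 made up most of that sum (1409 ± 220.1 against 872 ± 139 normalized counts, log2 fold change -0.69, SE 0.15, adjusted P = 0.102 by edgeR with Benjamini-Hochberg adjustment). Of the 5 portal fibroblast markers tested, 4 had a log2 fold change below 0, and the second smallest P was that of Dpt (-0.67, SE 0.34). The summed stellate markers overlapped, at 155 to 263 and 180 to 270 CPM, and the stellate genes with the smallest P, Pdgfrb and Tagln, were at -0.50 (SE 0.26) and 0.22 (SE 0.17). The part of these cells in the elastic fiber values was not tested.

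Some latent TGF-β binding proteins (LTBPs) hold latent TGF-β in the matrix, and several bind fibrillin microfibrils. All 4 LTBP genes had a log2 fold change below 0, between -0.28 and -0.06, with overlapping groups and unadjusted P of 0.450 or more. Ltbp4, the most abundant, had normalized counts of 990.2, 444, 909.7 and 991 in WT and of 717, 465, 1073 and 584 in MøFoxO1-KO mice. WT mouse 23 and MøFoxO1-KO mouse 27 were the lowest of their groups, and the log2 fold change was -0.23 (SE 0.30). Ltbp3 was at -0.20 (SE 0.26), Ltbp2 at -0.28 (SE 0.41) and Ltbp1 at -0.06 (SE 0.39), the last with 72.8 normalized counts in MøFoxO1-KO mouse 29 against 20.3 to 28.8 in the other MøFoxO1-KO mice.

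Of the 8 genes for fibronectin and the matricellular proteins, 5 had a log2 fold change above 0, with a median of 0.17, and 1 (12.5%, against 16.7% of all tested genes) had an unadjusted P under 0.05. Thbs2, which clears matrix metalloproteinase and restrains angiogenesis, had normalized counts of 71.2, 47.2, 63.7 and 47.8 in WT and of 74.8, 50.2, 113 and 150.0 in MøFoxO1-KO mice. MøFoxO1-KO mice 28 and 29 were high, while mouse 27 lay inside the WT range. The log2 fold change was 0.75 (SE 0.33, unadjusted P = 0.0450, edgeR Benjamini-Hochberg adjusted P = 0.285), and the unadjusted P stayed under 0.05 in 3 of 8 fits without 1 mouse and was 0.0793 in limma-voom. Thbs1, which activates latent TGF-β, was at -0.11 (SE 0.55).

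Ecm1 had normalized counts of 4979, 2445, 3467 and 5369 in WT and of 5033, 4442, 5941 and 6404 in MøFoxO1-KO mice, a log2 fold change of 0.42 (SE 0.24, edgeR Benjamini-Hochberg adjusted P = 0.405). WT mice 23 and 24 were lower than every MøFoxO1-KO mouse, and the other WT mice lay among them. Fn1, much of which hepatocytes secrete into plasma, had 13389.7, 20567, 11667 and 11995 normalized counts in WT and 20375, 18859, 12226 and 17279 in MøFoxO1-KO mice. Here WT mouse 23 was the highest of all, and the log2 fold change of 0.25 (SE 0.22) was 0.48 without it (edgeR unadjusted P = 0.0275). Summed hepatocyte markers (6 genes) were at 71187 to 95874 CPM in WT, highest in mouse 23, and at 84656 to 122387 in MøFoxO1-KO livers, and their part in the Fn1 values was not tested. The hepatocyte genes with the smallest P were Apoa1 (1.07, SE 0.21) and Serpina1a (0.90, SE 0.20), with edgeR Benjamini-Hochberg adjusted P of 0.0765 and 0.102.

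Periostin (Postn), induced in fibrogenic tissue, was at 257 ± 90.7 and 377 ± 187 normalized counts (log2 fold change 0.55, SE 0.35), with MøFoxO1-KO mouse 29 at 646. Tenascin C (Tnc), a protein of injured tissue, was low in both groups (15.2 ± 5.16 and 12.0 ± 4.66). Sparc was at 0.09 (SE 0.23) and its relative Sparcl1 at -0.50 (SE 0.28), with 218 ± 59.2 and 154 ± 52.6 normalized counts for Sparcl1.

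The proteoglycans did not separate the groups. Bgn had normalized counts of 2536, 1595, 2667 and 2640.1 in WT and of 2151, 1578, 2504 and 2379.7 in MøFoxO1-KO mice, a log2 fold change of -0.13 (SE 0.20). The 2 low values were WT mouse 23 and MøFoxO1-KO mouse 27. Fibromodulin (Fmod), which regulates collagen fibril assembly, was at -0.47 (SE 0.42), and Vcan had too few counts to enter the fit.

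Leaving out WT mouse 23 raised the members with an unadjusted P under 0.05 from 4 to 7, among which Eln (-0.54), Lama2 (-0.91), Sparcl1 (-0.68) and Fn1 (0.48) were not among the 4, and the share over all tested genes was then 13.1%. Leaving out MøFoxO1-KO mouse 28 also gave 7, with Fbln2, Mfap4, Lama2 and Sparcl1 joining Lama3, Nid1 and Lamc1 (16.9% over all tested genes). The edgeR Benjamini-Hochberg adjusted P of every addition was 0.103 or more. The median log2 fold change of the members, -0.19 with all mice, lay between -0.35 and -0.05 when each mouse was left out. It was -0.35 without WT mouse 23, -0.11 without WT mouse 24, -0.08 without WT mouse 25 and -0.05 without MøFoxO1-KO mouse 27. The share of members below 0 ranged from 55.9% without MøFoxO1-KO mouse 26 to 79.4% without WT mouse 23.

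Genes that act with these proteins were listed from their known roles. Of 22 matrix receptors tested out of 26, 2 had an unadjusted P under 0.05 with a positive log2 fold change (Itgb3 and Sdc2) and 2 with a negative one (Cd36 and Dag1), in all 18.2% against 16.7% of all tested genes. Cd36, a thrombospondin receptor and fatty acid transporter, was the 1 called, where 0.188% of all tested genes were. The paper already lists Cd36 among its downregulated genes. Its normalized counts were 4818, 6280.5, 4767 and 5202 in WT and 1544, 1553, 1979.5 and 1944 in MøFoxO1-KO mice. The groups were far apart, and Cd36 fell by 1.59 on the log2 scale (SE 0.15, edgeR Benjamini-Hochberg adjusted P = 0.00935). Itga2 was at 0 counts in all MøFoxO1-KO mice and at most 6 in WT mice, and Itga11 and Itgb6 were at most 3 counts in every mouse of 1 group.

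Of 36 other non-collagen matrix genes, 29 were tested and 0 were called (edgeR with Benjamini-Hochberg adjustment), with 4 (13.8%, against 16.7% of all tested genes) at an unadjusted P under 0.05. Vitronectin (Vtn), a plasma adhesion protein made by hepatocytes, was at 35131 ± 3274 and 53871 ± 8881 normalized counts with no overlap (log2 fold change 0.62, SE 0.16, Benjamini-Hochberg adjusted P = 0.128 in edgeR). The mean of the summed hepatocyte markers was 83689 in WT and 105068 CPM in MøFoxO1-KO livers, with overlapping groups (71187 to 95874 and 84656 to 122387). The part of these markers in the Vtn values was not tested. Nephronectin (Npnt), an integrin α8β1 ligand, was at 28.1, 165, 30.4 and 80.6 in WT and at 4.79, 13.1, 8.54 and 26.9 in MøFoxO1-KO mice, also without overlap (log2 fold change -2.52, SE 0.68, edgeR Benjamini-Hochberg adjusted P = 0.134). Fbn2, Matn4, Mfap5, Thbs4 and Aspn were at the floor of 3 counts or fewer in every mouse of at least 1 group.

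The 5 tested crosslinkers of elastic fibers all had a log2 fold change below 0, with a median of -0.46. Transglutaminase 2 (Tgm2) was at 1665 ± 461 and 1212 ± 116 normalized counts (unadjusted P = 0.0364, edgeR Benjamini-Hochberg adjusted P = 0.265). Loxl1, the lysyl oxidase relative that acts on elastin, was at 75.0 ± 24.6 and 47.1 ± 15.4 (log2 fold change -0.67, SE 0.33), and both genes overlapped between the groups. Among 6 tested partners of latent TGF-β, Tgfb2 had 15.9, 19.7, 24.9 and 16.9 normalized counts in WT and 4.79, 14.3, 7.59 and 7.84 in MøFoxO1-KO mice, without overlap (log2 fold change -1.17, SE 0.40, adjusted P = 0.201 by edgeR with Benjamini-Hochberg adjustment). Tgfb1, the main form in liver, was at 229 ± 95.1 and 343 ± 39.4 (log2 fold change 0.58, SE 0.29) and overlapped.

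The summed level of 9 macrophage markers was 187 to 297 CPM in WT mice. It was 343 to 1019 in MøFoxO1-KO mice other than mouse 28, which was at 237. The paper instead reports, from immunostaining of a macrophage protein, that macrophage infiltration on this diet was lessened in MøFoxO1-KO livers. The gene of that protein, Adgre1, is among the 9. Staining of a protein and summed RNA of several genes are unlike measures, and the cause of their difference in direction was not tested. The 9 genes include the resident Kupffer cell markers Clec4f, Vsig4, Timd4, Marco and Cd5l, so their sum is not a count of all macrophages. All 9 had a log2 fold change above 0, 6 of them with an unadjusted P under 0.05 in edgeR (66.7%, against 8.65% of all tested genes in that direction) and 0 called, where 0.188% of all tested genes were. The smallest P belonged to Marco (log2 fold change 5.18, SE 1.06) and Timd4 (2.08, SE 0.44), with edgeR Benjamini-Hochberg adjusted P of 0.0870 and 0.0968. Of 6 markers of lipid-associated macrophages, Gpnmb was the 1 called, against the same 0.188% of all tested genes. Its log2 fold change was -4.13 (SE 0.67, adjusted P = 0.0382 by edgeR with Benjamini-Hochberg adjustment). In 3 of the 6, Gpnmb, Mmp12 and Trem2, the unadjusted P was under 0.05 with a negative log2 fold change (background 8.06%). The paper lists Trem2 and Mmp12 among its downregulated genes, and the main edgeR test called neither here. The median over the 6 was -1.83, and Gpnmb and Trem2 did not overlap between the groups. Their summed level overlapped (133 to 237 and 130 to 201 CPM), while the other 3, Spp1, Cd9 and Lpl, were the most abundant and had log2 fold changes of -0.23 (SE 0.16), 0.41 (SE 0.33) and 0.19 (SE 0.30). Cholangiocyte (19.2 to 36.3 and 26.1 to 40.5) and smooth muscle markers (5.63 to 9.92 and 6.47 to 9.75) overlapped too. The cholangiocyte genes with the smallest P, Cldn7 and Tstd1, were at -0.65 (SE 0.46) and 0.51 (SE 0.38), and the smooth muscle genes Smtn and Myh11 at 0.01 (SE 0.23) and -0.02 (SE 0.53), with Cnn1 and Actg2 at the floor in at least 1 group. The exocrine pancreas genes Prss1, Cpa1 and Pnlip and the adipocyte gene Lep were at 0 counts in all mice. In the summed pancreas list (5 genes, 10.6 to 14.7 and 15.5 to 42.2 CPM) only Cela1 passed the filter, with a log2 fold change of 1.40 (SE 0.28, edgeR Benjamini-Hochberg adjusted P = 0.0851). In the adipocyte list only Cfd did (-0.12, SE 1.72), with Adipoq and Plin1 at the floor. The part of these cells in the matrix values was not tested.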

How the data were processed

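Poly(A)-selected RNA of 8 livers was sequenced by the study. Per the labels, the authors aligned reads to mm10 with STAR and deposited featureCounts gene counts, raw and unnormalized. Tool versions and the strand setting are not given in the sources used here, and the kit was taken as not marking strand. Both groups came from the labels. Counts of all 46517 genes were filtered with filterByExpr (minimum count 10, minimum total 15), scaled by TMM and tested by edgeR 4.0.16 (quasi-likelihood F test, Benjamini-Hochberg adjustment over 13278 genes) in R 4.3.3. Genes were called at an adjusted P under 0.05 where the log2 fold change also exceeded 1.5 in size. Normalized counts are counts per effective library of the mean size. Alternatives were DESeq2 1.42.0, limma 3.58.1 (voom), other size factors, filters and thresholds, a robust fit and each mouse left out. The fits were tested on simulated data. Values are given by mouse for members with an unadjusted P under 0.05, without overlap, or with the highest level of their role, and for Fn1, Mfap4 and Fbln2, which were chosen after their values were seen. From each accompanying list the genes with an adjusted P under 0.05 are given, or else the 2 with the smallest P, and those at 3 counts or fewer in every mouse of a group; Dag1, Sdc2, Itgb3, Mmp12, Trem2, Spp1, Cd9 and Lpl were added after their values were seen. Members and lists were chosen with earlier results of these data known. Replicates are separate mice, whose spread the P values measure. Precision is limited by the 4 mice a group and by the depth of 15253218 to 18025481 counts per library. One gene of the lists is not reported here.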

Additional observations from a re-analysis of the deposited data

Results flagged for a closer look

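In each group of 4 mice, the highest or the lowest mouse was compared with the rest by Dixon's test of the gap to its nearest neighbor over the whole range. Of 68 groups of members tested, 9 held a mouse beyond the 95% critical value. The nominal rate of 1 in 20 assumes independent, normally distributed values, and these counts come from the same mice. The share over all tested genes was not computed, so an excess among the members cannot be read from this count. WT mouse 23 was the flagged mouse in 6 of the 9. Over all tested genes it was the lowest of the 8 mice in 25.5% and the highest in 27.2%. It was the lowest WT mouse for Fbn1 (35.4 normalized counts), Ltbp4 (444), Lamb2 (52.1), Hspg2 (288) and Bgn (1595), and the highest for Lamb3 (649, with 215 next). Among the MøFoxO1-KO mice, mouse 28 was high for Fbln2 (75.0, with 22.7 next), mouse 29 was high for Ltbp1 (72.8, with 28.8 next) and mouse 27 was low for Lamb1 (93.2, with 154 next).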

How the results depend on the processing

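The main edgeR test called 0 members. DESeq2 called 1 (Lama3), edgeR with no filter on low counts called 1 (Lama3), and an adjusted P under 0.1 with no limit on the fold change held 2 (Lama3 and Nid1). No other alternative and no fit without 1 mouse called a member. Leaving out each mouse in turn put 3 to 7 members at an unadjusted P under 0.05, with 7 without WT mouse 23 and 7 without MøFoxO1-KO mouse 28. Nid1 passed an adjusted P of 0.05 without MøFoxO1-KO mouse 28 (-0.99). The sign of 11 members changed when some mouse was left out and of 0 under another processing. Their log2 fold changes then ranged from -0.54 to 0.14 for Efemp1, -0.051 to 0.33 for Efemp2, -0.17 to 0.27 for Fbln5, -0.065 to 0.26 for Hspg2, -0.020 to 0.53 for Lama4, -0.39 to 0.062 for Lama5, -0.059 to 0.30 for Lamb2, -0.60 to 0.15 for Ltbp1, -0.49 to 0.00015 for Ltbp2, -0.17 to 0.23 for Sparc and -0.55 to 0.21 for Thbs1. No paired analysis was possible because the groups share no replicate numbers. The low-count members Vcan, Tnc and Mfap4 are limited by depth.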

Other observations

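Ratios between relatives were compared after the values had been seen, over 23 pairs of members of 1 family, as the log2 ratio of their normalized counts in each mouse. In 2 pairs the groups did not overlap. The Nid1 to Nid2 log2 ratio was 2.28 ± 0.26 in WT and 1.48 ± 0.25 in MøFoxO1-KO livers (SD, n = 4; exact permutation P = 0.0286, 0.282 with Benjamini-Hochberg adjustment over the 23 pairs). The Lama2 to Lama3 log2 ratio was -0.28 ± 1.03 and -2.48 ± 0.44, with the same exact permutation P before and after adjustment (n = 4). Neither passed the correction, but 0.0286 is the smallest P possible here, so 2 separate pairs among 23 could not pass it. Levels of Nid2 and Lama2 on their own overlapped between the groups. The other pairs overlapped as well.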
